A study of Mus musculus with 10 samples.

Results

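Chromatin accessibility was compared between epicardium-derived cells (EPDCs) and E17.5 epicardium of the mouse heart, gene by gene over the 20807 protein-coding genes of chromosomes 1 to 19. The comparison used 7 of the 10 samples of the series. The 4 EPDC samples gave 3 peak lists (1 from E12.5 hearts and 2 from E13.5 hearts, of which the second E13.5 list joined 2 technical replicates), and the 3 E17.5 samples gave a list each. EPDCs were sorted as CD31- tdTomato+ PDPN- cells, the mesenchymal progeny that have left the heart surface, and E17.5 epicardium as CD31- tdTomato+ PDPN+ cells, the matured mesothelial layer. The 3 lists of E11.5 epicardium (CD31- tdTomato+ PDPN+) served as a reference for the early layer and entered no test.

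All animals were C57BL/6J and carried Rosa26tdTomato;Wt1CreERT2/+, and every group received tamoxifen (100 mg/kg) at E9.5. The tdTomato label therefore marks cells that expressed the Wt1-driven recombinase around the time of tamoxifen, and their descendants, whatever those became. Each sample was a pool of littermate hearts, 4 hearts per E17.5 sample and between 4 and 13 per E13.5 sample, from which 40000 to 50000 live cells were sorted, as the labels give it. The study's methods give other ranges for the E13.5 hearts and the sorted cells, and hearts per E12.5 sample are not given in the labels. The labels call the biological replicates independent, so the p-values below describe the spread between such pools. Within EPDCs that spread also holds any difference between E12.5 and E13.5, as both stages were treated as replicates of a single group. Stage, sorted population and the PDPN gate changed together, and their contributions cannot be told apart. In sorted pools, fewer cells with an open site and less accessibility per cell cannot be told apart either.

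The epicardium is the mesothelium of the heart. During midgestation some of its cells pass through an epithelial-to-mesenchymal transition (EMT), lose junctions and enter the myocardium, where they give rise to fibroblasts, pericytes and vascular smooth muscle, while the cells that stay behind form a keratin-bearing, non-migratory lining. In ATAC-seq a transposase inserts adapters into open DNA, so that promoters and distal regulatory elements appear as peaks, and the number of peak summits near a gene is a coarse measure of how many accessible elements surround it.

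The EPDC lists held 99612, 104988 and 128705 summits and the E17.5 lists 92821, 125027 and 105089, an overlapping range (exact permutation test, two-sided, p = 0.8, n = 3 lists per group). For each gene, summits within 25 kb of the gene body were counted, scaled to the mean total of the 6 lists and compared as log2(scaled summits + 1) with limma, and differences are given on that scale as EPDC minus E17.5 with their standard error (SE). A promoter was called where a peak lay within 1 kb of the 5' end of the gene, and its strength is given as the rank percentile of that peak among all peaks of the list, with 0 where no peak was called. The lists held 78172, 84557 and 103205 peaks in EPDCs and 73606, 91550 and 81057 at E17.5, so a percentile stands for a different position from the top in each list, and small gaps between percentiles are not read as differences. Windows of neighbouring genes overlap, so neighbours share summits, and an uncalled promoter is below the peak caller's threshold rather than closed.

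Promoters of epicardial and of other cell types were read against the labels. The *Wt1* promoter, of the transcription factor that defines the lineage, ranked at 96.8, 94.9 and 92.1 in EPDCs and at 89.8, 89.7 and 88.2 in E17.5 epicardium. The promoter of *Tcf21*, a transcription factor of epicardium and cardiac fibroblasts, ranked between 87.3 and 92.0 in all 6 lists, so neither was higher in E17.5 epicardium than in EPDCs in every list. Of 14 endothelial promoters, 7 were called in all 3 EPDC lists and 9 in all 3 E17.5 lists, and of 17 cardiomyocyte promoters, 9 and 11, beside 66.1% and 64.1% of all promoters. The promoters of *Cdh5*, *Pecam1*, *Tie1*, *Emcn* and *Robo4*, which define endothelium, were called in none of the 6 lists, and neither were those of *Myh6*, *Tnni3*, *Ttn* and *Myl2* of cardiomyocytes. The promoter of *Pdpn* itself, whose protein set the gate, ranked at 84.7, 83.7 and 84.9 in EPDCs and at 81.9, 80.5 and 80.6 at E17.5, and as positions from the top of the lists the groups overlapped.

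The EPDC lists also stood apart in a way that the groups do not describe. There were 303 stretches of the genome, 24.0 Mb in all, in which none of the 6 epicardial lists (E11.5 and E17.5) had a peak and every EPDC list had many or strong summits. The 303 stretches held 1747, 1751 and 1910 of the EPDC summits, and the windows of 818 of the 20807 genes met them. The reverse pattern, no EPDC peak and many or strong summits in all 6 epicardial lists, was met by 6 stretches, a criterion that asks for summits in 6 lists rather than 3. Defined with 3 lists against 3, there were 527 with no E17.5 peak and 259 of the reverse pattern. The EPDC lists also held 61, 69 and 87 peaks on the mitochondrial genome and on other sequences outside chromosomes 1 to 19, X and Y, where the epicardial lists held 0. Whether the 303 stretches come from the cells or from a step in the making of the lists was not tested. Genes whose windows meet the 303 stretches are named as such below.

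More genes carried additional accessible elements in E17.5 epicardium than in EPDCs. Of 16393 genes tested, 1384 (8.44%) had more summits in EPDCs and 3021 (18.4%) had more in E17.5 epicardium at an adjusted p under 0.05 (limma, Benjamini-Hochberg). Without the genes that meet the stretches the counts were 1063 (6.72%) and 2947 (18.6%) of 15820. The excess towards E17.5 depended on the scaling, as EPDC-higher genes made up 31.4% of the calls with the scaling used, 43.1% with none (663 against 875 genes) and 46.9% when lists were scaled to the sum over gene windows (1770 against 2007). The median difference over all genes tested was -0.14, -0.10 and -0.04 under these scalings, so a difference of a gene is best read against that value. Called genes moved by a median of 0.79 towards EPDCs and 0.66 towards E17.5, where the median size of the difference over all genes was 0.29.

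**Figure D1:**
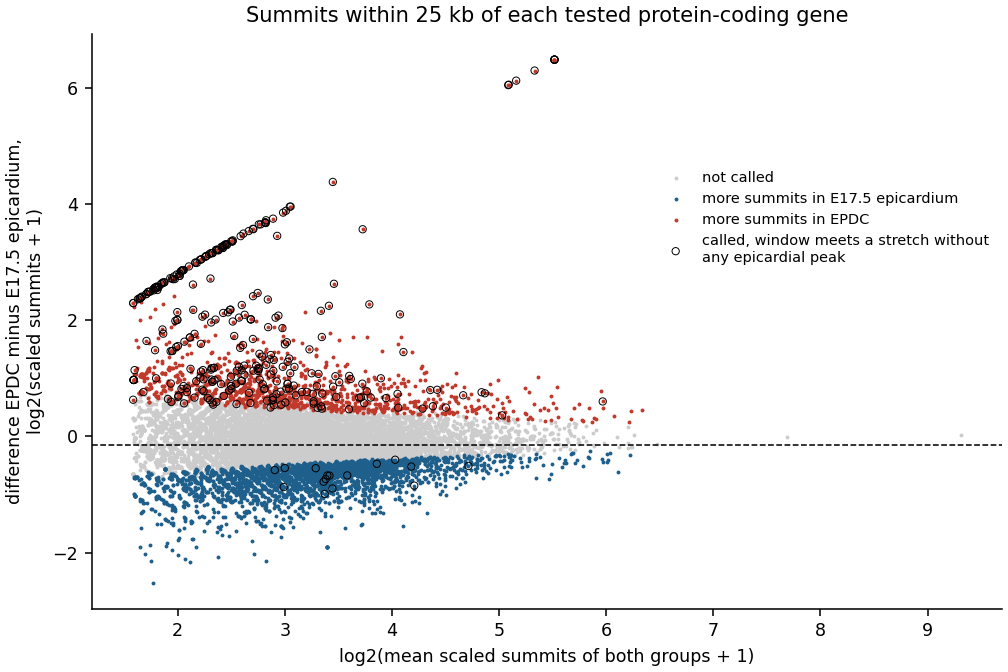
Each dot is 1 of the 16393 genes tested, with log2(mean scaled summits + 1) on the horizontal axis and the difference EPDC minus E17.5 epicardium on the vertical axis. Red dots are the 1384 genes with more summits in EPDCs, blue dots the 3021 with more in E17.5 epicardium, open circles mark called genes whose windows meet a stretch without any epicardial peak, and the dashed line is the median of -0.14. The largest differences towards EPDCs carry such a circle.

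Leaving out predicted and multigene-family names (Gm, Rik, Olfr and Vmn), here and in the rankings below, the 10 largest EPDC-higher differences all lay in the stretches, led by *Cphx3* with 17, 18 and 26 summits and *Sfxn3* with 16, 13 and 15, each against 0 in all 6 epicardial lists. The definition of a stretch, which admits no epicardial peak, favours such genes. Among them, *Fcgr3*, an Fc receptor of myeloid cells, had 23, 27 and 20 summits in EPDCs and 1 in each E17.5 list. Of the genes outside the stretches, the largest differences belonged to *Morc1* and *Zpld1* on chromosome 16. *Morc1* (chr16:48431237-48630900), a germline gene of transposon silencing, had 6, 6 and 8 summits in EPDCs, 0 in each E17.5 list and 5, 11 and 7 in the E11.5 lists (difference 2.92, SE 0.21, adjusted p = 2.07e-09, limma). *Zpld1* (chr16:55225175-55297986), a zona-pellucida-domain protein, had 6, 6 and 7 summits against 0 in each E17.5 list (2.86, SE 0.21, adjusted p = 2.75e-09). Against lists at 0 these differences rest on the added count of 1 and bound no fold change.

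*Spock1* (chr13:57421195-57908332), a secreted proteoglycan of the extracellular matrix, had 10, 14 and 19 summits in EPDCs and 2, 3 and 2 at E17.5 (2.14, SE 0.19, adjusted p = 6.35e-08). *Col9a1*, a cartilage collagen chain, had 5, 5 and 7 against 0, 1 and 0 (2.41, SE 0.25, adjusted p = 5.35e-07). Further genes with differences above 2 were *Tmem252* (2.49), *Pla2g2f* (2.36), *C1ql2* (2.27), *Piwil1* (2.23), the potassium channel gene *Kcnj3* (2.06) and the bone matrix gene *Ibsp* (2.01). By the rule that chose them, the groups overlapped for none of the 10, as for 2017 of all genes tested (12.3%) in this direction. *Spock1* had 16, 23 and 21 summits in the E11.5 lists.

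The strongest distal region called in all 3 EPDC lists and in no E17.5 list is shown for the 4 leading genes outside the stretches, to show what kind of element the counts rest on. The regions lie at chr16:48562704-48562854 (intron of *Morc1*), chr16:55273665-55273815 (intron of *Zpld1*), chr19:24654025-24654175 (intergenic, 19.9 kb upstream of *Tmem252*) and chr1:24219148-24219298 (intron of *Col9a1*), in mm10 (GRCm38.p6), plus strand, 5' to 3'. Capitals mark motif letters on either strand, the E-box CATCTG in *Morc1*, *Tmem252* and *Col9a1*, the SOX letters ACAATG in *Morc1*, the MEIS letters TGACAG (2 copies) and the RUNX letters TGTGGT in *Zpld1*, and the FOX letters TGTTTAC in *Tmem252*.
Morc1: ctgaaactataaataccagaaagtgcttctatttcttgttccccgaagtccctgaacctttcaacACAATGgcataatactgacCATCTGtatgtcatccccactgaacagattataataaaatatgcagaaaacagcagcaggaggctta
Zpld1: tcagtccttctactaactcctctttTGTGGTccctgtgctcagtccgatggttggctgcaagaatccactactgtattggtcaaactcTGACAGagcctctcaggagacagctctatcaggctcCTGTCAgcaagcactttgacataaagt
Tmem252: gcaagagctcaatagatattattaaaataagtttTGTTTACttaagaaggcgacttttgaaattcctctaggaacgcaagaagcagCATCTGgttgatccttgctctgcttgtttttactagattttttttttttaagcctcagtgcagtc
Col9a1: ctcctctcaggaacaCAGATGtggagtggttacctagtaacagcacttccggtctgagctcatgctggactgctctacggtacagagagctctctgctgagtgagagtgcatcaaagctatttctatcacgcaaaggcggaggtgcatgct

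None of these 4 held the AP-1 letters TGANTCA. The *Zpld1* region ranked at percentiles of 59.1, 53.8 and 71.8 in EPDCs and at 43.4, 53.7 and 60.0 in E11.5 epicardium, and the *Tmem252* region at 57.5, 65.7 and 69.3 against 50.5, 51.8 and 49.8, so both were also called in the early layer. The regions of *Morc1* (5.22 and 3.32) and *Col9a1* (55.5 and 34.9) were each called in 2 of the 3 E11.5 lists.

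Towards E17.5 epicardium, *Samd9l* (chr6:3372257-3399572), an interferon-induced gene, had 4, 4 and 6 summits at E17.5 and 0 in each EPDC list (-2.51, SE 0.23, adjusted p = 9.54e-08, limma), with a promoter at 40.5, 54.8 and 59.5 that was called in no EPDC list. *Krt14* (chr11:100203162-100207548), a keratin of stratified epithelia, had 9, 11 and 11 summits against 2, 1 and 2 (-2.15, SE 0.21, adjusted p = 1.9e-07). *Ugt1a6a* (chr1:88134809-88218997), a glucuronosyltransferase of xenobiotic metabolism, had 8, 11 and 9 against 1, 2 and 2 (-2.01, SE 0.20, adjusted p = 3.62e-07). By the rule that chose them, every E17.5 library lay above every EPDC library for these genes, as for 4521 of all genes tested (27.6%).

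*Saa1*, an acute-phase serum amyloid, had 4, 6 and 6 summits at E17.5 and 0, 1 and 1 in EPDCs (-2.03, SE 0.25, adjusted p = 8.29e-06). *Slc25a18*, a mitochondrial glutamate carrier, had 5, 7 and 5 against 0, 1 and 1 (-2.11), and was at 6 in each E11.5 list. The other genes of the 10 largest were *AL607142.1* (-2.16), *Ly9* (-2.02), *Krtap17-1* (-1.96), *Rhag* (-1.90) and *Adgrf3* (-1.90). The calls of *Ly9* and *Rhag* were lost without scaling (limma, adjusted p = 0.0558 and 0.0508). That of *Adgrf3* was lost without scaling and with equal numbers of top summits (up to 0.0853).

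The corresponding distal regions, called in all 3 E17.5 lists and in no EPDC list, lie at chr6:3397738-3397888 (intron of *Samd9l*), chr4:120072297-120072447 (intron of *Hivep3*, within the body of *AL607142.1*), chr11:100198796-100198946 (intergenic, 8.68 kb from the 5' end of *Krt14*, on its downstream side) and chr6:120772180-120772330 (intergenic, 1.32 kb upstream of *Slc25a18*), in mm10 (GRCm38.p6), plus strand, 5' to 3'. Capitals mark the AP-1 letters TGANTCA in *Samd9l*, where they overlap the E-box CATCTG, and in *Krt14* (2 copies), the E-box CAGCTG in *AL607142.1*, where it overlaps the MEIS letters TGACAG, and the E-box CAGCTG in *Slc25a18*.
Samd9l: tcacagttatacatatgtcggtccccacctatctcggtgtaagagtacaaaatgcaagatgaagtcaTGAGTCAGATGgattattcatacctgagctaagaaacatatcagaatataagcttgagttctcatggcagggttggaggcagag
AL607142.1: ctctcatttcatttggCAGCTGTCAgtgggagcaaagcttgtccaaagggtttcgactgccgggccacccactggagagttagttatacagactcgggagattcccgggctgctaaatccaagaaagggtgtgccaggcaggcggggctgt
Krt14: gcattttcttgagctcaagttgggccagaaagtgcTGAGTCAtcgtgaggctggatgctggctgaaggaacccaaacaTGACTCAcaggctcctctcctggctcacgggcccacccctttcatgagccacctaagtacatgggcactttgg
Slc25a18: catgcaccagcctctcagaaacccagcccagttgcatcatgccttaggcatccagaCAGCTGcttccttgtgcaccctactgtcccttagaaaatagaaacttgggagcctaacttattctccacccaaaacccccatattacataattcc

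The *Krt14* region ranked at up to 56.9 in the E17.5 lists and was called in no E11.5 list, and the same held for the regions of *Samd9l* (28.2, 41.2 and 37.6) and *AL607142.1* (20.8, 54.1 and 46.7). The *Slc25a18* region was called in all 3 E11.5 lists.

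Genes of mesothelial identity were called in 1 direction. Of 22 tested members of this list, 12 (54.5%) were called towards E17.5 and 0 towards EPDCs, beside 18.4% and 8.44% of all genes, with a median of -0.42 beside -0.14 over all genes, and the counts towards E17.5 were 5 without scaling and 8 with scaling to gene windows. Leaving out E17.5 library 3 reduced the 12 to 6. This list and those below were chosen with earlier results of these data known. An excess over the share of all genes is therefore a description and no independent evidence. *Rspo1* (chr4:124986430-125009099), a secreted enhancer of Wnt signalling, led the list with 8, 14 and 12 summits at E17.5 and 5, 3 and 4 in EPDCs (-1.33, SE 0.20, adjusted p = 7.58e-05, limma). *Bnc1* (chr7:81966672-81992292), a zinc-finger factor of mesothelium and keratinocytes, had 13, 17 and 15 against 7, 7 and 8 (-0.98, SE 0.15, adjusted p = 9.58e-05). Both calls held under every alternative tried, and at E11.5 *Rspo1* had 11, 14 and 10 summits and *Bnc1* had 15, 14 and 15.

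Promoters of the called members went in both directions. That of *Lrrn4* ranked at 79.2, 87.7 and 89.7 in EPDCs and at 54.3, 57.4 and 57.7 at E17.5, and that of *Bnc1* at 80.6, 83.3 and 85.6 against 74.2, 75.3 and 75.2, both opposite to the summits. *Krt19*, a simple-epithelial keratin, had 12, 19 and 18 summits at E17.5 against 8, 8 and 10 (-0.87, SE 0.15, adjusted p = 0.00036), and its promoter ranked at 30.8, 64.1 and 44.4 there and was uncalled in the EPDC and E11.5 lists. *Msln* (chr17:25748613-25754378), the mesothelial surface protein mesothelin, had 9, 12 and 11 summits against 6, 6 and 7 (-0.71, SE 0.16, adjusted p = 0.00331), a call that was lost with a window of 5 kb (0.277). *Upk3b*, a uroplakin and classical mesothelial marker, had 11, 14 and 12 against 6, 9 and 10 (-0.58, SE 0.16, adjusted p = 0.0127), and lost its call without scaling, with a window of 5 kb and with the replicate block (up to 0.193). The *Msln* promoter was called only at E17.5, at 74.1, 85.8 and 75.4, whereas that of *Upk3b* ranked at 96.2, 97.1 and 96.7 at E17.5, 98.3, 98.9 and 98.0 at E11.5 and 69.9, 19.7 and 41.3 in EPDCs.

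Other members called towards E17.5 were *Lrrn4* (-0.87), the mucin *Muc16* (-0.69), the retinoic acid synthase *Aldh1a2* (-0.61), *Pdpn* (-0.56), the neighbours *Krt8* (-0.52) and *Krt18* (-0.45), whose windows overlap, and *Wt1* (-0.37). The calls of *Krt8* and *Krt18* were lost without E13.5 library 1, E13.5 library 2, E17.5 library 1 or E17.5 library 3 (adjusted p up to 0.14 and 0.234), and that of *Wt1* without E13.5 library 1, E13.5 library 2, E17.5 library 2 or E17.5 library 3 (0.0555 to 0.144). Those of *Muc16*, *Aldh1a2* and *Pdpn* were lost without E17.5 library 3, and that of *Muc16* also without either E13.5 library (up to 0.14). *Wt1* had 18, 19 and 20 summits in EPDCs and 19, 29 and 25 at E17.5, and its promoter peak overlapped between the groups as a position from the top of the lists. *Krt7* was not called (-0.39, adjusted p = 0.082), yet its promoter ranked at 71.8, 72.7 and 70.0 at E17.5 and at 10.2, 1.72 and 15.9 in EPDCs. *Tcf21* (0.01), *Tbx18* (-0.29) and *Sema3d* (-0.31) did not pass the test.

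**Figure D2:**
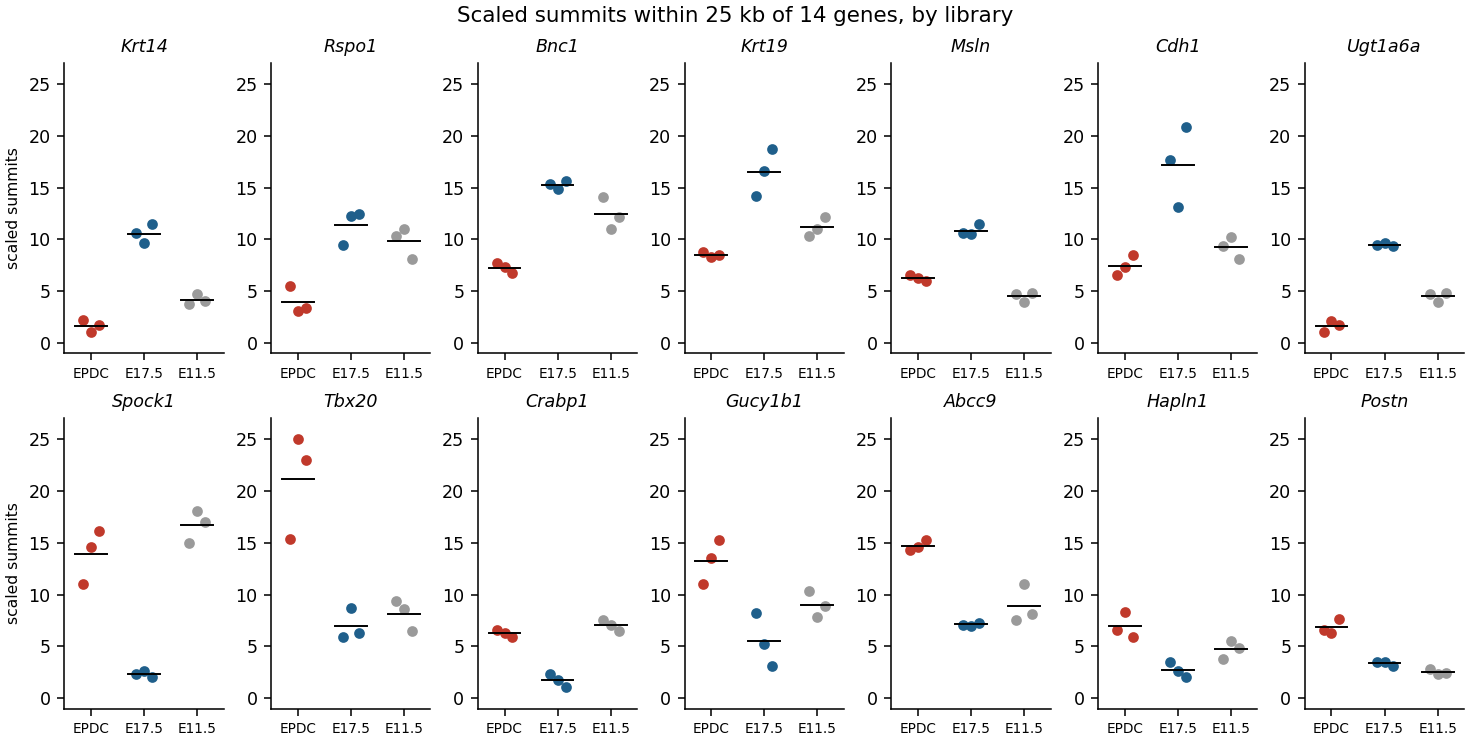
Scaled summits within 25 kb of 14 genes on the vertical axis, for EPDC (red), E17.5 epicardium (blue) and E11.5 epicardium (grey), with a dot per library and a bar at the mean of 3. The upper genes, from *Krt14* to *Ugt1a6a*, have every blue dot above every red dot, and the lower genes, from *Spock1* to *Postn*, have every red dot above every blue dot.

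Of 26 tested genes of epithelial junctions and polarity, 7 (26.9%) had more summits at E17.5 and 1 (3.85%) had more in EPDCs, beside 18.4% and 8.44% of all genes (median -0.33), against 4 and 0 without scaling and 7 and 1 with scaling to gene windows, and without E12.5 library 1 the count towards E17.5 rose to 11. *Cdh1* (chr8:106603351-106670246), E-cadherin, had 15, 15 and 20 summits at E17.5 and 6, 7 and 10 in EPDCs (-1.09, SE 0.17, adjusted p = 0.000133, limma), and this call held under every alternative. Its promoter ranked at 75.2, 81.9 and 81.2 at E17.5 and at 48.5, 57.3 and 70.9 in EPDCs. The study reports *Cdh1* expression as absent from the mouse heart, and summits and promoter peaks do not measure expression. The basement membrane laminin *Lama5* (-0.91), the tight junction genes *Cgn* (-0.89, in a stretch), *Ocln* (-0.87), *Tjp1* (-0.80) and *Marveld3* (-0.80), and the epithelial splicing regulator *Esrp2* (-0.59) were also called, the last with a call that was lost without either E13.5 library or any E17.5 library (adjusted p up to 0.0869). *Ocln*, occludin, had 9 summits in each E17.5 list and 5, 4 and 5 in EPDCs.

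*Grhl2*, a grainyhead factor known for epithelial gene activation, went the other way, with 7, 8 and 12 summits in EPDCs and 4, 5 and 4 at E17.5 (0.84, SE 0.18, adjusted p = 0.00206), a call that was lost without scaling, with equal numbers of top summits and at the stricter threshold. Its promoter ranked at 63.6, 67.6 and 76.2 in EPDCs and at 38.6, 52.9 and 50.2 at E17.5. *Epcam* (0.15), *Cdh3* (-0.31), and the desmosomal genes *Pkp2* (-0.31), *Dsp* (-0.07) and *Jup* (-0.02) did not pass the test. The promoters of *Epcam* and *Cdh3* ranked higher in every E17.5 list than in any EPDC list. Those of *Dsp* and *Jup* overlapped between the groups, and that of *Pkp2* did so as a position from the top of the lists.

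Of 13 tested genes of EMT and mesenchymal adhesion, 4 (30.8%, beside 8.44% of all genes) had more summits in EPDCs and 0 had more at E17.5 (median 0.22), with 1 call towards EPDCs without scaling and 4 with scaling to gene windows. *Foxc2*, a forkhead factor of mesenchyme, had 13, 10 and 14 summits in EPDCs and 6, 7 and 7 at E17.5 (0.75, SE 0.17, adjusted p = 0.00286, limma), a call that was lost with a window of 5 kb and with each interval counted once (up to 0.0885). The E-cadherin repressors *Zeb2* (26, 23 and 26 against 17, 20 and 13 summits, 0.53, SE 0.15, adjusted p = 0.0109) and *Zeb1* (14, 17 and 20 against 13, 13 and 8, 0.52, SE 0.17, adjusted p = 0.0329) and the matrix gene *Fn1* (0.54) completed the set. The *Zeb1* promoter went against its summits, at 58.5, 56.2 and 61.4 in EPDCs and 79.2, 84.6 and 80.7 at E17.5. The call of *Zeb2* was lost without E17.5 library 3 (adjusted p = 0.0875), and those of *Zeb1* and *Fn1* without any of 4 libraries, namely both E13.5 libraries and E17.5 library 3 for each, with E17.5 library 2 for *Zeb1* and E17.5 library 1 for *Fn1* (adjusted p up to 0.225). The count of 4 was 2 without either E13.5 library and 1 without E17.5 library 3. *Snai1* (-0.03), *Snai2* (0.10), *Twist1* (0.10), *Prrx1* (0.25), N-cadherin *Cdh2* (0.22) and *Cdh11* (-0.31) did not pass the test.

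Of 23 tested fibroblast and matrix genes, 1 (4.35%) had more summits in EPDCs and 5 (21.7%) had more at E17.5, beside 8.44% and 18.4% of all genes (median -0.04), against 1 and 0 without scaling and 2 and 3 with scaling to gene windows. *Postn*, periostin, a matrix protein of activated mesenchyme, was the gene called towards EPDCs, with 6, 6 and 9 summits against 3, 4 and 3 (0.83, SE 0.19, adjusted p = 0.00281, limma), a call that was lost with equal numbers of top summits, with a window of 5 kb and at the stricter threshold (adjusted p up to 0.177). Its promoter ranked at 67.9, 75.9 and 78.9 in EPDCs, at 40.8, 45.1 and 39.1 at E17.5, and was uncalled at E11.5. Towards E17.5 went *Fbln2* (19, 15 and 18 against 24, 29 and 24 summits, -0.59), *Thy1* (-0.65), *Ddr2* (-0.64), *Mfap5* (-0.65) and *Col5a1* (-0.36). The *Ddr2* promoter ranked higher in every EPDC list (70.2, 77.1 and 78.7) than in any E17.5 list (63.4, 67.9 and 61.1). The call of *Ddr2* was lost without E17.5 library 3 (adjusted p = 0.0712), that of *Mfap5* without E12.5 library 1, E13.5 library 2, E17.5 library 1 or E17.5 library 3 (up to 0.131), that of *Col5a1* without E13.5 library 2 or any E17.5 library (up to 0.0842), and the count of 5 was 3 without E13.5 library 2 or E17.5 library 1 and 2 without E17.5 library 3. *Pdgfra*, the receptor that marks cardiac fibroblast progenitors, had 15, 14 and 16 summits in EPDCs and 12, 16 and 15 at E17.5 (0.03, adjusted p = 0.915), and *Col1a1* (0.04), *Col1a2* (0.06) and *Dcn* (-0.10) also stayed below the threshold.

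Of 19 tested smooth muscle and pericyte genes, 5 (26.3%, beside 8.44% of all genes) had more summits in EPDCs and 0 at E17.5, although the median of the list was -0.02, with 2 and 0 without scaling and 7 and 0 with scaling to gene windows. *Gucy1b1* (chr3:82032006-82074689), a subunit of the nitric oxide receptor, had 10, 13 and 18 summits against 7, 6 and 3 (1.19, SE 0.23, adjusted p = 0.00074, limma), and lost its call without scaling and with equal numbers of top summits (up to 0.0801). *Abcc9*, the potassium channel subunit of pericytes, had 13, 14 and 18 against 6, 8 and 7 (0.95, SE 0.15, adjusted p = 0.000131), and kept its call under every alternative. *Rgs5*, a pericyte marker, had 3, 5 and 4 against 1, 3 and 2 (0.76, SE 0.23, adjusted p = 0.0214).

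The *Rgs5* promoter ranked at 70.1, 75.7 and 73.7 in EPDCs and at 13.1, 50.4 and 25.2 at E17.5. Its summit call was lost without E13.5 library 1 or E17.5 library 1 (adjusted p = 0.126). The calls of *Cnn1* (0.58), whose window meets a stretch, and *Pdgfrb* (24, 21 and 30 against 15, 23 and 17 summits, 0.39) were each lost without any of 4 libraries (adjusted p up to 0.131 and 0.0998), which were E12.5 library 1 and E17.5 library 3 for both, E13.5 library 1 and E17.5 library 2 for *Cnn1*, and E13.5 library 2 and E17.5 library 1 for *Pdgfrb*. *Myh11* (-0.20), *Acta2* (-0.04), *Tagln* (-0.42) and *Myocd* (-0.38), genes of contractile smooth muscle, did not pass the test. Their promoters ranked higher in every EPDC list than in any E17.5 list, also as positions from the top of the lists. That of *Mcam*, of the same gene list, went the other way. The count of 5 was 3 without E12.5 library 1, E13.5 library 1, E17.5 library 1 or E17.5 library 3, and 1 gene was called towards E17.5 without E12.5 library 1 or E17.5 library 1.

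Among valve and cushion mesenchyme genes, 3 of 8 tested (37.5%, beside 8.44% of all genes) had more summits in EPDCs and 0 at E17.5 (median 0.39), with 2 and 0 without scaling and 4 and 0 with scaling to gene windows. *Hapln1*, a link protein of the cardiac jelly, had 6, 8 and 7 summits against 3, 3 and 2 (1.09, SE 0.21, adjusted p = 0.000716, limma) and was called under every alternative that tested it. *Tbx3*, a T-box factor of the conduction system and cushions, had 7, 7 and 15 against 3, 4 and 4 (1.08, SE 0.21, adjusted p = 0.00076), and lost its call without scaling, with equal numbers of top summits and at the stricter threshold (up to 0.345). *Msx2* (0.50) lost its call without E12.5 library 1, E13.5 library 1, E17.5 library 2 or E17.5 library 3 (adjusted p up to 0.131). *Sox9* (0.11) and *Nfatc1* (0.06) were not called.

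*Tbx20* (chr9:24718138-24774303), a T-box factor of heart and cushion development, showed the largest difference among 22 tested transcription factors of cardiac mesenchyme. It had 14, 24 and 27 summits in EPDCs, 5, 10 and 6 at E17.5 and 10, 11 and 8 at E11.5 (1.46, SE 0.18, adjusted p = 9e-06, limma), and its promoter ranked above 95 in all 6 lists. Unscaled counts were the exception under which this call was lost. *Foxc1* (10, 13 and 14 against 6, 9 and 5 summits, 0.78) and *Foxp1* (48, 62 and 85 against 34, 50 and 42, 0.55, SE 0.10, adjusted p = 0.000598) were also called towards EPDCs, and *Tead4* (-0.52) towards E17.5, a call that was lost without E13.5 library 1 or any E17.5 library (up to 0.08), while 2 were called without E12.5 library 1 or E13.5 library 2. In all, 3 (13.6%) were called towards EPDCs and 1 (4.55%) towards E17.5, beside 8.44% and 18.4% of all genes (median -0.13), against 0 and 0 without scaling and 3 and 0 with scaling to gene windows. The call of *Foxc1* was lost without scaling, with equal numbers of top summits, at the stricter threshold and with each interval counted once (up to 0.361), and that of *Foxp1* under the first 2 of these. *Gata4* (-0.18), *Gata6* (0.24), *Tbx5* (0.01), *Hand2* (-0.24) and *Meis1* (-0.13) did not pass the test.

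Retinoic acid is made by the epicardium and read by nuclear receptors, and of 15 tested genes of this pathway 3 (20%) were called in each direction, near the 18.4% of all genes towards E17.5 and above the 8.44% towards EPDCs (median 0.08), against 2 towards EPDCs and 0 towards E17.5 without scaling and 3 and 1 with scaling to gene windows. Towards EPDCs went the binding protein gene *Crabp1* (chr9:54764748-54773110) with 6, 6 and 7 summits against 2, 2 and 1 (1.45, SE 0.22, adjusted p = 6.8e-05, limma), a call that was lost with a window of 5 kb (0.0605). The receptor gene *Rarb*, itself a retinoic acid target, had 32, 26 and 27 against 17, 19 and 17 (0.60, SE 0.14, adjusted p = 0.00403), a call that held under every alternative, and the degrading enzyme gene *Cyp26b1* had 8, 10 and 14 against 5, 7 and 6 (0.67). The *Rarb* promoter was called in every EPDC list, at 27.8, 16.3 and 30.2, and in no E17.5 list. At E11.5, *Crabp1* had 8, 9 and 8 summits and *Rarb* 28, 39 and 29.

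Towards E17.5 went the genes for retinol and retinal oxidation, *Rdh10* (-0.69) and *Aldh1a1* (-0.45), and the partner receptor *Rxra* (-0.42), along with *Aldh1a2* named above. Of these, *Rdh10* lost its call without E13.5 library 2, E17.5 library 1 or E17.5 library 3, *Rxra* without E13.5 library 1, E17.5 library 1 or E17.5 library 3, and *Aldh1a1* without E13.5 library 1 or any E17.5 library (adjusted p up to 0.103). None of the 3 was called without E17.5 library 1 or without E17.5 library 3, 1 gene was called towards E17.5 without E13.5 library 1, and 4 were without E12.5 library 1. The *Aldh1a1* promoter ranked at 51.9, 48.7 and 42.3 at E17.5 and at 0, 0 and 15.5 in EPDCs.

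Of 21 tested TGF-beta, BMP, FGF and PDGF ligands and receptors, 3 (14.3%, below the 18.4% of all genes) had more summits at E17.5 and 0 in EPDCs (median -0.04), with 0 and 0 without scaling and 1 and 0 with scaling to gene windows. The ligand gene *Tgfb2* had 19, 30 and 23 summits at E17.5 and 15, 16 and 19 in EPDCs (-0.53, SE 0.12, adjusted p = 0.00378, limma). The co-receptor gene *Tgfbr3* (-0.65) and *Fgf2* (-0.44) were the others, and *Tgfbr3* lost its call without scaling, with each interval counted once, with the replicate block and with scaling to gene windows (up to 0.298), *Tgfb2* under the first 2 of these (up to 0.242), and *Fgf2* without E13.5 library 1, E17.5 library 1 or E17.5 library 3 (up to 0.137). *Tgfbr1* (0.07), *Tgfbr2* (-0.28), *Bmp4* (0.33), *Fgf10* (0.31) and *Pdgfa* (-0.04) did not pass the test.

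Of 10 tested AP-1 factor genes, 5 (50%, beside 18.4% of all genes) were called towards E17.5 and 0 towards EPDCs (median -0.43), against 1 and 0 without scaling and 3 and 0 with scaling to gene windows. *Jund* had 15, 16 and 14 summits at E17.5 and 10, 9 and 10 in EPDCs (-0.63, SE 0.16, adjusted p = 0.00559, limma), and lost its call with a window of 5 kb (-0.03, adjusted p = 0.917) and with each interval counted once. *Fosb* had 20, 28 and 22 against 20, 12 and 13 (-0.67), and lost its call without E13.5 library 2 (adjusted p = 0.0555). *Atf3* (-0.49, lost under 4 alternatives), *Fos* (-0.47) and *Batf* (-0.48) were called too. The count was 3 without E13.5 library 1, E17.5 library 1 or E17.5 library 2, and *Fos* and *Batf* each lost their calls without those libraries, *Fos* also without E13.5 library 2 and *Batf* without E12.5 library 1 or E17.5 library 3 (up to 0.218). *Jun* (0.18), *Junb* (-0.22) and *Fosl2* (-0.40) did not pass the test.

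Among 15 tested genes of late maturation, 3 (20%, near the 18.4% of all genes) had more summits at E17.5 and 0 in EPDCs (median -0.28), with 0 and 0 without scaling and 2 against 1 with scaling to gene windows. *Fkbp5*, a glucocorticoid-induced chaperone, had 22, 30 and 26 summits at E17.5 and 16, 15 and 19 in EPDCs (-0.65, SE 0.12, adjusted p = 0.000558, limma), and *Zbtb16*, another glucocorticoid target, had 23, 36 and 30 against 17, 20 and 22 (-0.60). The clock-output factor *Hlf* (-0.47) lost its call without E13.5 library 1 or any E17.5 library (up to 0.226), and without E12.5 library 1 the list had 6 calls. *Nfix* (0.01), *Nr3c1* (-0.40), *Per1* (-0.33) and *Nfib* (-0.18) did not pass the test. In the list of fetal timing, 1 of 8 was called in each direction, beside 8.44% and 18.4% of all genes towards EPDCs and E17.5, *Hmga2* with 19, 30 and 34 summits in EPDCs and 14, 23 and 15 at E17.5 (0.59) and *Mycn* (-0.72), which lost its call without E17.5 library 2 (adjusted p = 0.0565), and neither was called without scaling. Without E12.5 library 1 or E13.5 library 1, 2 of the list were called towards E17.5. *Lin28b* (0.36) was not called.

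The 10 tested complement and defence genes gave 2 calls (20%) towards E17.5 and 1 (10%) towards EPDCs, near the 18.4% and 8.44% of all genes (median -0.34), against 0 and 1 without scaling and 2 and 1 with scaling to gene windows. *C1ra*, a complement protease, had 6, 6 and 5 summits at E17.5 and 2, 2 and 4 in EPDCs (-0.95, SE 0.21, adjusted p = 0.00258, limma), and *Saa3*, a serum amyloid, had 3, 4 and 4 against 1, 2 and 2 (-0.86). *Lcn2*, lipocalin, whose window meets a stretch, had 8 summits in each EPDC list and 3 in each E17.5 list (1.13, SE 0.19, adjusted p = 0.000254). The gene of complement C3 was not called (-0.56, adjusted p = 0.0561), but its promoter ranked at 67.7, 73.5 and 67.2 at E17.5 and was uncalled in the EPDC and E11.5 lists. Without E12.5 library 1 the calls towards E17.5 were 6.

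Of 16 genes taken from the study's text, some for their regulatory elements and others as regulators or for their expression, 5 (31.2%, beside 18.4% of all genes) were called towards E17.5 (*Msln*, *Upk3b*, *Krt8*, *Krt18* and *Wt1*) and 1 towards EPDCs (*Tbx20*), with 2 and 0 without scaling and 2 and 1 with scaling to gene windows. The count towards E17.5 was 2 without either E13.5 library or without E17.5 library 3. The study chose these genes with data that include the present samples, so they are not independent evidence of a direction. The other 10 did not pass the test, among them *Csf1*, *Maf* and *Nfe2l2* with log2 differences of 0.05, 0.32 and 0.14.

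The calls of single genes depended on the settings to differing degrees. Of 108 called genes singled out by the naming rule, 42 kept the call under every alternative that tested them, among them *Spock1*, *Morc1*, *Krt14*, *Samd9l*, *Rspo1*, *Bnc1*, *Cdh1*, *Abcc9*, *Rarb* and *Esam*. Without scaling 55 lost it, including *Krt19*, *Lama5*, *Thy1*, *Fbln2*, *Zeb1*, *Zeb2*, *Fkbp5*, *Zbtb16*, *C1ra*, *Saa3*, *Hmga2*, *Cyp26b1* and *Fli1*. With equal numbers of top summits 29 lost it, with a window of 5 kb 19 and at a −log10 q of at least 5 17.

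Single genes among the markers of other cell types differed. Of 14 tested endothelial genes, 2 (14.3%) were called towards EPDCs and 3 (21.4%) towards E17.5, beside 8.44% and 18.4% of all genes (median -0.23), with 0 and 1 without scaling and 2 and 2 with scaling to gene windows, and 1 towards EPDCs without E13.5 library 2. Their summed scaled summits ranged from 133 to 141 in EPDCs and from 140 to 147 at E17.5. *Fli1* had 25, 29 and 39 summits in EPDCs and 13, 19 and 15 at E17.5 (0.89, SE 0.12, adjusted p = 2.58e-05, limma), whereas *Esam* (-1.12), *Egfl7* (-0.64, and 0.070 with a window of 50 kb) and *Robo4* (-0.58) went the other way, the last losing its call without E13.5 library 1, E17.5 library 2 or E17.5 library 3 (up to 0.127). *Emcn*, a sialomucin of endothelium, had 2, 3 and 6 summits in EPDCs and 1 in each E17.5 list (1.09, adjusted p = 0.00246, limma), and lost its call without scaling (0.0822). The *Esam* promoter, of a junction protein of endothelium and platelets, ranked at 72.2 or above in every E17.5 list and at 8.19, 1.72 and 0 in EPDCs. That of *Egfl7* was called in no EPDC list. Those of *Kdr*, *Erg*, *Sox18* and *Cldn5* went the other way, ranking higher in every EPDC list than in any E17.5 list. Of 16 cardiomyocyte genes, 3 (18.8%) were called towards EPDCs and 1 (6.25%) towards E17.5 (median -0.05), with 1 and 0 without scaling and 3 and 0 with scaling to gene windows, and towards E17.5 the count was 3 without E12.5 library 1 and 0 without E17.5 library 2. Their summed scaled summits ranged from 139 to 153 in EPDCs and from 142 to 148 at E17.5. *Ryr2*, the cardiac calcium release channel, had 16, 18 and 21 against 9, 9 and 10 (0.85, SE 0.15, adjusted p = 0.000374).

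Of 9 tested blood genes, 2 (22.2%, beside 8.44% of all genes) were called towards EPDCs (median 0.02), with 1 without scaling, *Fcgr3* in the stretches and *Ptprc* (1.03), which lost its call without E17.5 library 3 (adjusted p = 0.0697). Their summed scaled summits ranged from 82.4 to 94.8 in EPDCs and from 56.2 to 67.2 at E17.5, but without *Fcgr3* from 65.4 to 67.0 and from 55.2 to 66.0. The promoters of *Ptprc*, *Spi1*, *Csf1r*, *Itgam*, *Coro1a* and *Laptm5* were uncalled in all 6 lists, while 4 of the 10 blood promoters were called in all 3 EPDC lists and 3 in all 3 E17.5 lists, beside 66.1% and 64.1% of all promoters. Of 6 neural crest and glia genes, 3 (50%) were called towards EPDCs (median 0.51), with summed scaled summits from 37.5 to 41.7 against 25.9 to 28.1, and 1 without scaling. The count was 2 without E13.5 library 2 or without E17.5 library 3. Among them were *Ednrb* (7, 8 and 7 against 3, 3 and 4 summits, 0.91) and *Foxd3* (1.13). The call of *Foxd3* was lost without scaling, with equal numbers of top summits and at the stricter threshold (adjusted p up to 0.221), and that of *Ednrb* with a window of 50 kb (0.193). The promoter of *Sox10*, a gene of crest and glia, was called in E13.5 library 2 at 32.2 and in none of the other lists. Those of *Ednrb* and *Foxd3* were called in all 6 lists. The part of other cell types in the differences above was not tested.

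**Figure D3:**
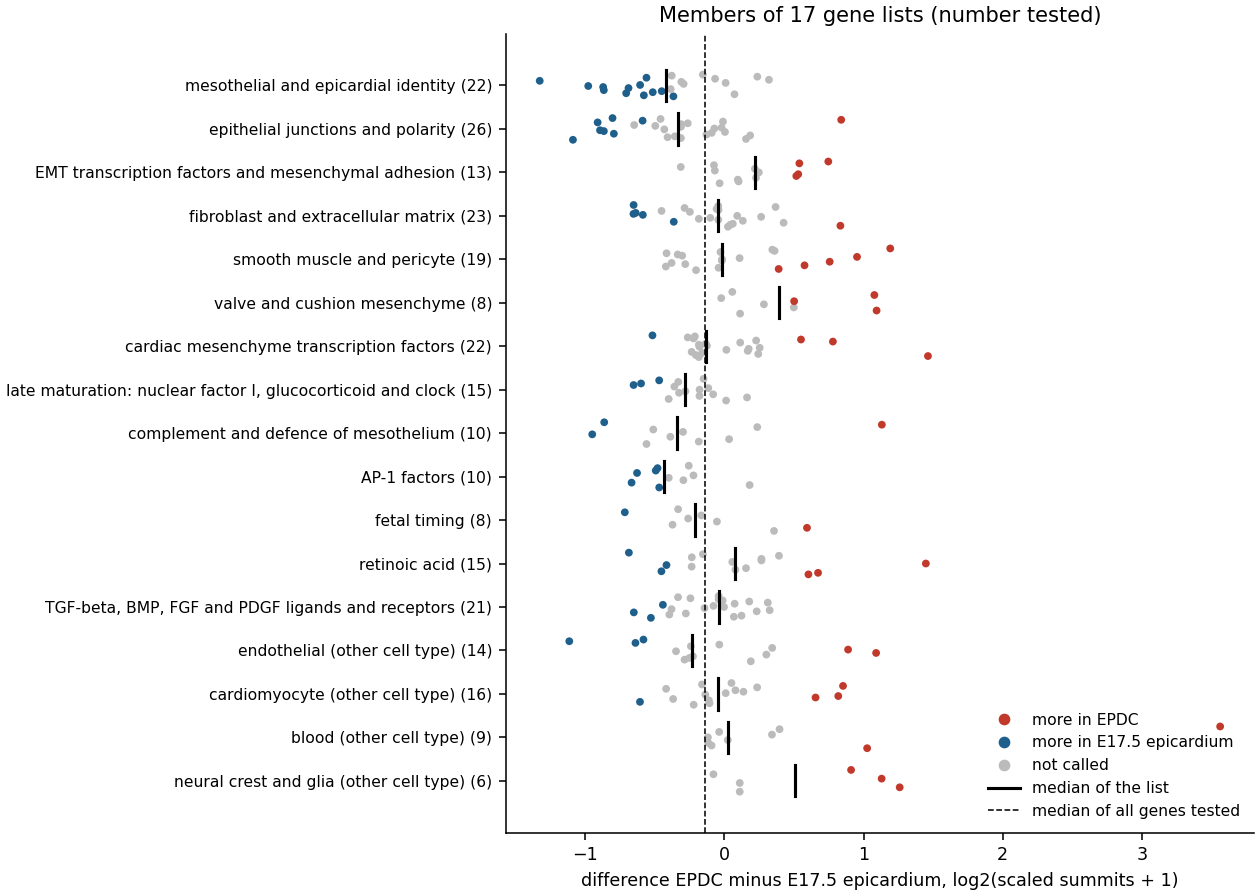
Difference EPDC minus E17.5 epicardium, in log2(scaled summits + 1), of each tested member of the gene lists, with the number tested in parentheses. Red and blue dots passed the test towards EPDC and E17.5, grey dots did not, thick bars are list medians and the dashed line is the median of all genes, -0.14. The mesothelial list has its median at -0.42, and the valve list at 0.39.

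Promoters were compared by presence or absence of a call, a criterion unlike the test on summits. There were 528 promoters (2.54% of 20807) called in all 3 EPDC lists and no E17.5 list, and 153 (0.735%) with the reverse pattern. Outside the stretches the counts were close to each other, 174 (0.87% of 19989) and 148 (0.74%). The other 354 EPDC-only promoters belonged to genes whose windows meet the stretches. By definition the stretches hold no epicardial peak and strong or many EPDC summits. For promoters inside them, absence at E11.5 is set by that definition and strength is favoured by it. Of the 354, 348 were called in no E11.5 list and 1 in all 3. Over all 528, 113 (21.4%) were called in all 3 E11.5 lists, and over the 174 outside the stretches 112 (64.4%) were. The 8 strongest EPDC-only promoters, among them *Hjurp*, *Trpm8*, *Xpo1* and *Derl1* at percentiles of at least 99.3, belonged to the stretches.

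The strongest EPDC-only promoter outside them was that of *Tslp*, a cytokine of epithelia and stroma, at 86.2, 89.9 and 89.1, and it was also called at E11.5 at 71.2, 73.1 and 67.9. *Gucy2d* (80.1, 81.6 and 83.1) and *Kcnmb1*, a potassium channel subunit of smooth muscle (76.1, 80.3 and 80.3), were likewise called in all E11.5 lists. *Ifit3b*, an interferon-induced gene, ranked at 82.1, 75.9 and 83.8, was uncalled at E11.5 and also had more summits in EPDCs (1.47, adjusted p = 4.11e-05, limma). *Sybu* had an EPDC-only promoter (76.6, 83.7 and 84.9) but more summits at E17.5 (-1.04, adjusted p = 0.000943). *Syndig1*, *Dcaf5* and *Ido2* completed the set.

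Of the 148 E17.5-only promoters, 63 (42.6%) were called in all 3 E11.5 lists and 57 (38.5%) in none. *Snrpa1*, a spliceosome gene, led them at 91.4, 92.7 and 91.8. It was followed by, among others, the keratin gene *Krt5* at 85.6, 85.5 and 78.3, the immune checkpoint ligand *Vtcn1* at 85.8, 88.1 and 82.9, the sulfotransferase *Chst4* at 83.3, 85.4 and 84.8, and the carbonic anhydrase *Car9* at 83.8, 91.2 and 88.8. *Krt5* (chr15:101707070-101712898) had 0 summits in each EPDC list and 2, 6 and 4 at E17.5, too few for the test. *Vtcn1* (-1.10), *Chst4* (-1.24) and *Gal3st2c* (adjusted p = 0.000349) had more summits at E17.5 by limma, and *Padi3* (-0.26) and *Lrrc2* (-0.53, adjusted p = 0.0501) did not pass.

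**Figure D4:**
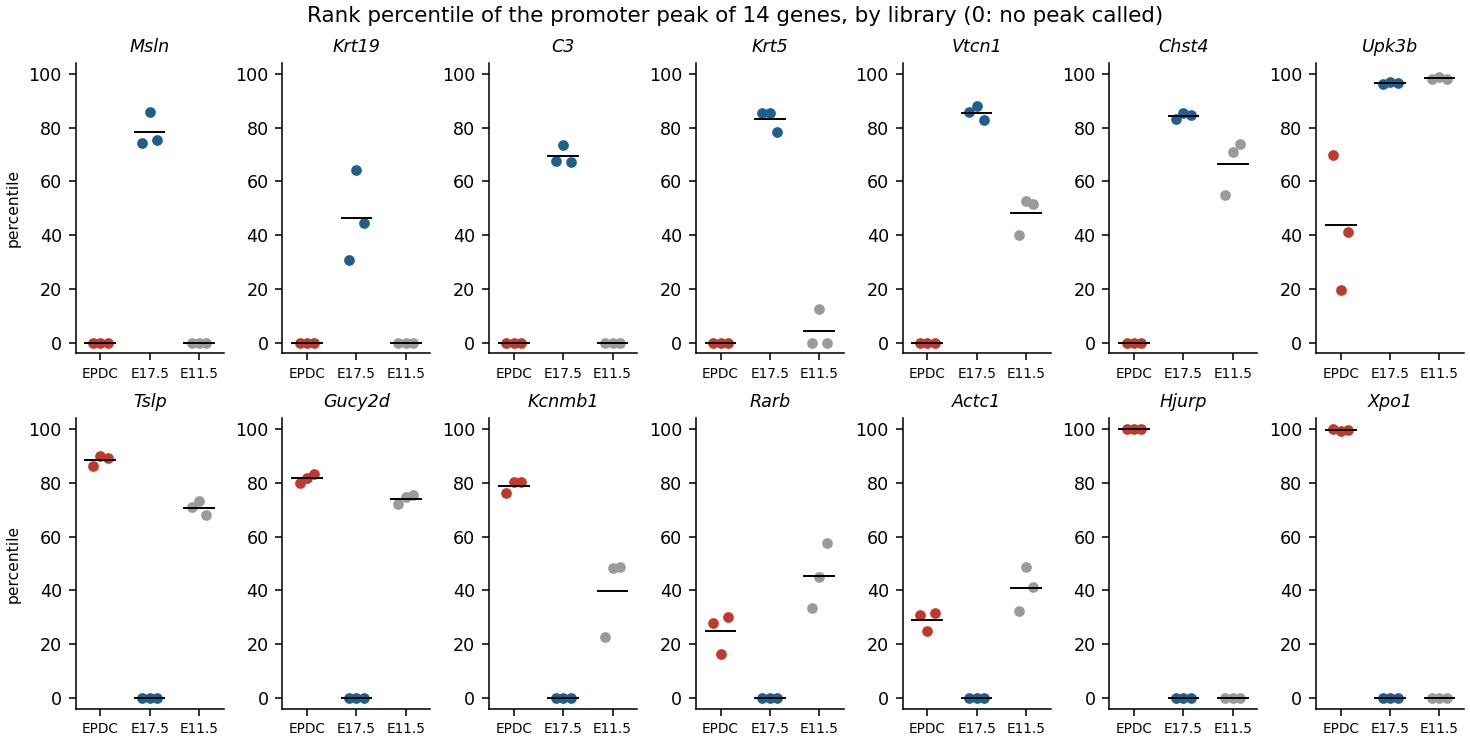
Rank percentile of the promoter peak of 14 genes on the vertical axis, where 0 means that no peak was called, with a dot per library and a bar at the mean for EPDC (red), E17.5 (blue) and E11.5 epicardium (grey). All upper genes but *Upk3b* are at 0 in the EPDC lists, the lower genes are at 0 in the E17.5 lists, and *Hjurp* and *Xpo1*, which lie in the stretches, are at 0 in the E11.5 lists as well.

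Of 121672 distal regions of 501 bp, at least 1 kb from any transcription start, 13060 outside the stretches were called in all EPDC lists and in no E17.5 list, 10055 in all E17.5 lists and in no EPDC list, and 32960 in all 6. Near the 153 named genes there were 229 EPDC-only regions, of which 181 lay outside the stretches, and 160 E17.5-only regions. EPDC-only and E17.5-only regions within 25 kb numbered 2 and 0 near *Tbx20*, 4 and 0 near *Gucy1b1*, 4 and 0 near *Hapln1*, 9 and 0 near *Fli1* and 8 and 1 near *Rarb*. They numbered 0 and 4 near *Krt19*, 0 and 4 near *Bnc1*, 1 and 5 near *Cdh1*, 3 and 7 near *Zbtb16* and 1 and 5 near *Atf3*. The regions come from the same summits and windows by which these genes were called. The split therefore restates those calls and is no independent evidence for them.

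The 2 classes of region differed in their letters, counted on either strand for 14 motifs. The AP-1 letters TGANTCA, bound by Fos and Jun dimers, were present in 39.5% of E17.5-only regions and 15.9% of EPDC-only regions, beside 25.7% of all distal regions. KLF letters CCACACCC were present in 9.39% and 3.29% (5.08% of all), and T-box letters AGGTGTGA in 3.19% and 1.26% (2.06%). The TEAD letters GGAATG differed less, with 38.0% and 32.4% (34.7%). These shares describe letters and not bound sites.

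Other letters leaned towards EPDC-only regions. The MEIS letters TGACAG were present in 45.2% of EPDC-only and 34.5% of E17.5-only regions (38.8% of all), the E-box CAGCTG in 40.1% and 29.7% (35.1%), and the SOX letters ACAATG in 26.1% and 17.7% (21.7%). The E-box CATCTG (40.1% and 37.0%), the GATA letters AGATAA (35.7% and 34.2%), the RUNX letters TGTGGT (31.8% and 34.2%) and the FOX letters TGTTTAC (7.18% and 7.89%) stood closer together, as did the glucocorticoid receptor site (1.03% and 1.08%). The full nuclear factor I site (0.306% and 0.0597%) and the C/EBP letters TTGCGCAA (0.0383% and 0.199%) were rare in both. The median GC content was 46.7% in EPDC-only and 47.3% in E17.5-only regions.

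**Figure D5:**
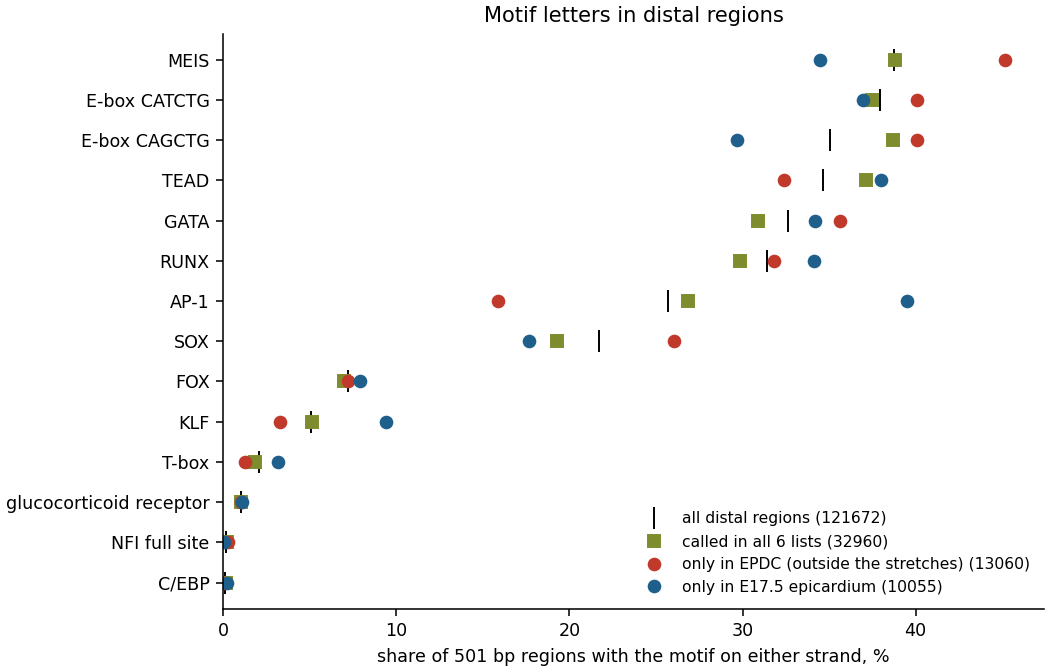
Share of 501 bp distal regions, in percent, that hold each motif's letters on either strand, for regions called only in EPDC outside the stretches (red, 13060), only in E17.5 epicardium (blue, 10055), in all 6 lists (green squares, 32960) and all regions (black ticks, 121672). The widest gaps are at AP-1 (15.9% against 39.5%), MEIS (45.2% against 34.5%) and the E-box CAGCTG (40.1% against 29.7%).

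E11.5 epicardium was nearer to EPDCs than to E17.5 epicardium for 9533 of the 16393 genes tested (58.2%), for 743 of the 1384 EPDC-higher genes (53.7%) and for 1986 of the 3021 E17.5-higher genes (65.7%). Outside the stretches, which were defined by having no E11.5 or E17.5 peak, the count was 719 of 1081 EPDC-higher genes (66.5%), so the share lies below or above that of all genes according to whether the stretches are kept. These 1081 were called in the fit of all genes. The 1063 given earlier came from a separate fit without the genes that meet the stretches. Of all EPDC-only distal regions, 45.4% were called in all 3 E11.5 lists and 35.5% in none, and of those outside the stretches 47.8% and 32.0%, against 33.4% and 44.4% of E17.5-only regions, beside 52.9% of all distal regions called in all 3. By gene, *Krt14* (4, 6 and 5), *Msln* (5, 5 and 6) and *Saa1* (2, 1 and 1) had fewer summits at E11.5 than at E17.5, while *Rspo1*, *Bnc1* and *Slc25a18* had 10 to 14, 14 to 15 and 6 there. *Postn* (3, 3 and 3), *Lcn2* (4, 3 and 3) and *Tbx20* (10, 11 and 8) had fewer summits in each E11.5 list than in any EPDC list.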

How the data were processed

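ATAC-seq libraries were sequenced with paired 40 bp reads. Per the study's methods, reads were aligned to mm10, and duplicates, mitochondrial and blacklisted reads were removed. The deposited EPDC lists nevertheless hold peaks on the mitochondrial genome, unlike the epicardial lists. The authors called peaks per list with MACS2 2.2.9.1 at q 0.01, with sub-summits. The deposited narrowPeak lists give each peak's fold enrichment over background, its −log10 p and −log10 q, and a summit offset. Read totals were not used here, so the depth behind a peak is not known.

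Summits (peak start plus offset) within 25 kb of each gene body, and peaks within 1 kb of its 5' end, were counted from the GRCm38.p6 annotation. Counts were scaled to the mean list total. Genes with a mean scaled count of at least 2 were tested on log2(count + 1) with limma 3.58.1 in R 4.3.3. Benjamini-Hochberg adjustment was used at 0.05. On simulated data the test missed most small changes and some large ones. The simulated counts were drawn independently for each gene, whereas real windows overlap. The simulation therefore gives no power or error rate for these lists. Single values were compared by exact permutation, which with 3 against 3 libraries (20 assignments) cannot go below p = 0.1. Python 3.11.15 with numpy 2.4.6, pandas 2.3.3 and scipy 1.17.1 was used. Peaks are ranked by −log10 p within each list.

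Members and gene lists were chosen with earlier results of these data known. Named genes are the 10 largest called differences in each direction, the 8 strongest one-sided promoters, the first 2 and up to 4 called members of each list, and the study's own genes, without Gm, Rik, Olfr and Vmn names. The leading genes and regions outside the stretches follow the same rule without genes in the stretches. Members named outside it, given only as not called or by a difference, were chosen after their values were seen. A stretch is a gap between peaks of the 6 epicardial lists, or from such a peak to a chromosome end, 500 bp trimmed at each edge, in which every EPDC list has at least 5 summits or a summit at or above its percentile 80. Stretches and scaling to gene windows were added after seeing the data. Alternatives changed the scaling, pseudocount, filter, window, threshold, counting of intervals, promoter definition, replicate block and libraries. The values of 1 gene of the neural crest and glia list are not reported here, though the list's counts and sums include it.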

Additional observations from a re-analysis of the deposited data

Results flagged for a closer look

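The 3 EPDC lists held 217 peaks outside chromosomes 1 to 19, X and Y (61, 69 and 87), of which 3, 4 and 7 lay on the mitochondrial genome. The 3 E17.5 lists and the 3 E11.5 lists held 0. These peaks entered no comparison, and whether the lists were made with different steps was not tested.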

How the results depend on the processing

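The counts of genes with more summits in EPDCs and in E17.5 epicardium, 1384 and 3021, were 663 and 875 without scaling, and 910 and 1777 with a window of 5 kb. A minimum mean of 5 gave 867 towards EPDCs, and scaling to gene windows gave 2007 towards E17.5. Leaving out a library in turn gave 985 to 1434 towards EPDCs and 1939 to 3605 towards E17.5, the lowest of the latter without E17.5 library 3. The replicate number as a block gave 1109 and 2188. The deviations of same-numbered libraries correlated at 0.124, but the numbers join different stages and animals, so no pairing was assumed. With the block, 21 of 108 called named genes lost the call, among them Upk3b, Wt1, Zeb1, Zeb2, Fn1, Ddr2, Mfap5, Pdgfrb, Cnn1, Msx2, Tead4, Hlf, Batf, Aldh1a1, Rxra, Tgfbr3, Fgf2, Ptprc, Actc1 and Xpo1. The 528 EPDC-only promoters became 174 without genes in the stretches and 529 to 601 with a library left out, and the 153 E17.5-only promoters ranged from 154 to 238, the highest without E17.5 library 1. The difference of 3456 summits per library ranged from -5345.7 to 12146.7, and was negative without E13.5 library 2 (-5345.7) and without E17.5 library 1 (-3956.3). Of 2571 combinations of a named gene and an alternative, 2196 kept direction and side of the threshold, 267 lost the call, 39 gained it, and 66 moved by more than the spread without a test. The other 3 reversed, Derl1 with a window of 5 kb (-0.42), Gucy2d with each interval counted once (0.53) and Egfl7 with a window of 50 kb (0.070). The cause was not tested. The lists give peaks above a threshold, so weaker accessibility was not detectable.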
